A study of Mus musculus with 17 samples.

Results

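Hspa1a, Hspa1b, Dnajb1, Hsph1 and Hspa8 encode cytosolic chaperones of the heat shock response, and their messages were followed through sorted mouse common myeloid progenitors of 7 groups. The 5 genes were taken by symbol, with the counts of their RefSeq transcripts summed and scaled to library size. They are 5 of 24416 genes in the files, and all 5 were among the 13558 genes with enough counts to be tested. Hspa1a, Hspa1b, Dnajb1 and Hsph1 are the inducible members and Hspa8 is the constitutive one.

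The study sequenced RNA of common myeloid progenitors, the bone marrow and fetal liver cells that give rise to granulocytes, monocytes, red cells and platelets, to follow the RNA-binding protein LIN28B and the let-7 microRNAs that it holds back. The 17 libraries were made from total RNA with a low-input amplification kit. Adult bone marrow gave 4 groups: let-7b/c knockout (3 libraries, numbered 1, 2 and 3), inducible LIN28B under vavcre (2 libraries, 4 and 6), inducible LIN28B without vavcre (2 libraries, 1 and 5) and wild type (3 libraries, 2, 5 and 6). Fetal liver gave 3 groups: Lin28b knockout (3 libraries, 3, 6 and 8), inducible let-7 (1 library) and wild type (3 libraries, 1, 4 and 5). The let-7b/c knockout carried the strain label albino black 6 and all other groups C57BL/6J, so genotype and strain cannot be told apart in that knockout. Vavcre stands for induction restricted to blood-forming cells. The treatment label of every library, wild type and knockout included, is doxycycline induction of Lin28b, and the labels give no age in days. Nothing in them ties libraries to separate animals, and the p-values cover only library-to-library spread, part of which may be technical.

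Members of the HSP70 family bind unfolded stretches of protein and release them in a cycle driven by ATP. HSP40 proteins start that cycle and nucleotide exchange factors end it. In cells without stress the constitutive HSC70 does most of this work, and on stress the transcription factor HSF1 binds arrays of heat shock elements and raises the inducible members within minutes. Hspa1a and Hspa1b encode the stress-inducible HSP70, Dnajb1 encodes an HSP40 partner that delivers substrates to it, Hsph1 encodes an HSP110 that exchanges nucleotide on HSP70, and Hspa8 encodes HSC70.

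Each member had 1 RefSeq transcript in the files. In GRCm38, Hspa1a (NM_010479) lies on chromosome 17 from 34969359 to 34972156 and Hspa1b (NM_010478) on chromosome 17 from 34956429 to 34959238. Dnajb1 (NM_018808) lies on chromosome 8 from 83608175 to 83612653, Hsph1 (NM_013559) on chromosome 5 from 149616843 to 149636498, and Hspa8 (NM_031165) on chromosome 9 from 40801276 to 40805202. The counts cover the whole annotated transcript, untranslated ends included. The coding sequences of Hspa1a (1923 bases) and Hspa1b (1926 bases) were 99.4% identical, with 8 mismatched and 3 gapped positions. Of all 50-base windows in the Hspa1a coding sequence, 82.4% also stood in Hspa1b, against 0% after the stop codon. A read that lies wholly in a shared window has no single place in the genome, and alignments that were not unique were left out of the counts. The counts of the pair therefore rest on the parts that differ, and their sum is given beside them.

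The near identity extends upstream. Of the 250 bases before the start of Hspa1a and Hspa1b, 247 were identical. The stretch from 150 to 31 bases before the start is printed because it is the same in both genes, which move together below, and because it holds the only match to the core of a heat shock element in their windows. Capitals mark that match (GAANNTTC, 104 to 97 bases before the start). Both genes lie on the minus strand, and the stretch is from chr17:34972187-34972306 for Hspa1a and chr17:34959269-34959388 for Hspa1b (RefSeq, GRCm38.p6).
Hspa1a and Hspa1b, upstream: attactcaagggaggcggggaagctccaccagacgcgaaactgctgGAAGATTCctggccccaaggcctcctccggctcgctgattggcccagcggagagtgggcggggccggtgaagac
Hsph1, also on the minus strand, is shown for contrast because its window held both an isolated core and an overlapping pair. Positions are counted from the upstream of its 2 listed starts. The first core (TTCNNGAA) was 33 to 26 bases before the start, within the printed stretch chr5:149636351-149636378. The second (TTCNNGAANNTTC) was 37 to 49 bases after the start, within the printed stretch chr5:149636287-149636309. Both stretches lie inside the Hsph1 span given above, which ends at 149636498, so the listed starts differ from the end of that span.
Hsph1, upstream core: gtagaatctTTCTCGAAggctcgagaag
Hsph1, downstream pair: tgctgcagaTTCTGGAAAGTTCt

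The search covered GAANNTTC and TTCNNGAA on both strands, with overlaps allowed, from 250 bases before to 50 after the start. Each 8-letter motif reads the same on both strands, and the 13-letter forms are each other's complement. Of 32851 RefSeq windows, 15.1% held GAANNTTC or TTCNNGAA, 7.86% held GAANNTTC, 8.52% held TTCNNGAA, and 0.603% held 13-letter overlaps (GAANNTTCNNGAA or TTCNNGAANNTTC). The 2 windows of Dnajb1 held 0 matches. Only exact matches to these letters were counted, so elements with mismatches or other spacing were missed. A window with 0 matches may still hold a heat shock element. Hspa8 had no window among those available, so its promoter was not searched.

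Each library held 14957111 to 28165554 counts on transcripts. Levels are in CPM: each count is set relative to its library total after TMM scaling, which evens out differences in RNA composition. Group levels are means ± SD. Differences are log2 ratios from edgeR with standard errors (SE). A called gene had an adjusted p (Benjamini-Hochberg, all 13558 tested genes) under 0.05. Reads carried no molecular identifiers. Of 14 progenitor markers, 12 had counts in every group, with a summed level of 4010 to 19917 CPM, and Kit and Runx1 were at 0 throughout. Reads that fit more than 1 RefSeq transcript were set aside by the counting. Canx, with 3 such transcripts, and Xbp1, with 2, also had 0 counts in all libraries. A marker at 0, here and below, therefore need not mean an absent message, and the cause of these zeros was not tested. Lin28b itself stood at 88.9 to 112 CPM in the fetal liver libraries labelled Lin28b knockout, against 89.3 to 124 CPM in wild-type fetal liver. Counts over a whole transcript do not resolve a missing exon, and those libraries are called "labelled Lin28b knockout" below. Lin28b stood at 1.73 to 3.92 CPM in the 4 inducible LIN28B libraries and at 0.104 to 0.283 CPM in let-7b/c knockout marrow, against 0.0585 to 0.744 CPM in wild-type marrow. The inducible let-7 library stood apart, with 28.5% of tested genes at 0 counts, against 7.83% to 10.05% in wild-type fetal liver. The vavcre libraries had 15.1% and 17.3% at 0, against 5.92% to 10.1% in wild-type marrow.

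Hspa8 was by far the most abundant member. Per kilobase of transcript it stood at 3048 ± 455 CPM in let-7b/c knockout marrow, 4397 ± 517 CPM in LIN28B marrow with vavcre, 3511 ± 179 CPM in LIN28B marrow without vavcre and 3460 ± 517 CPM in wild-type marrow. In fetal liver it stood at 2730 ± 8.51 CPM per kilobase in the labelled Lin28b knockout, 4867 CPM in the inducible let-7 library and 4356 ± 133 CPM in wild type. Its mean CPM over the 17 libraries ranked 5 among all tested genes. Hspa8 varied little, with a highest library 1.81-fold over the lowest. The same ratio was 2.48 for Dnajb1, 4.32 for Hsph1, 189 for Hspa1b and 1902 for Hspa1a, whose lowest library rests on 4 counts.

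**Figure D1:**
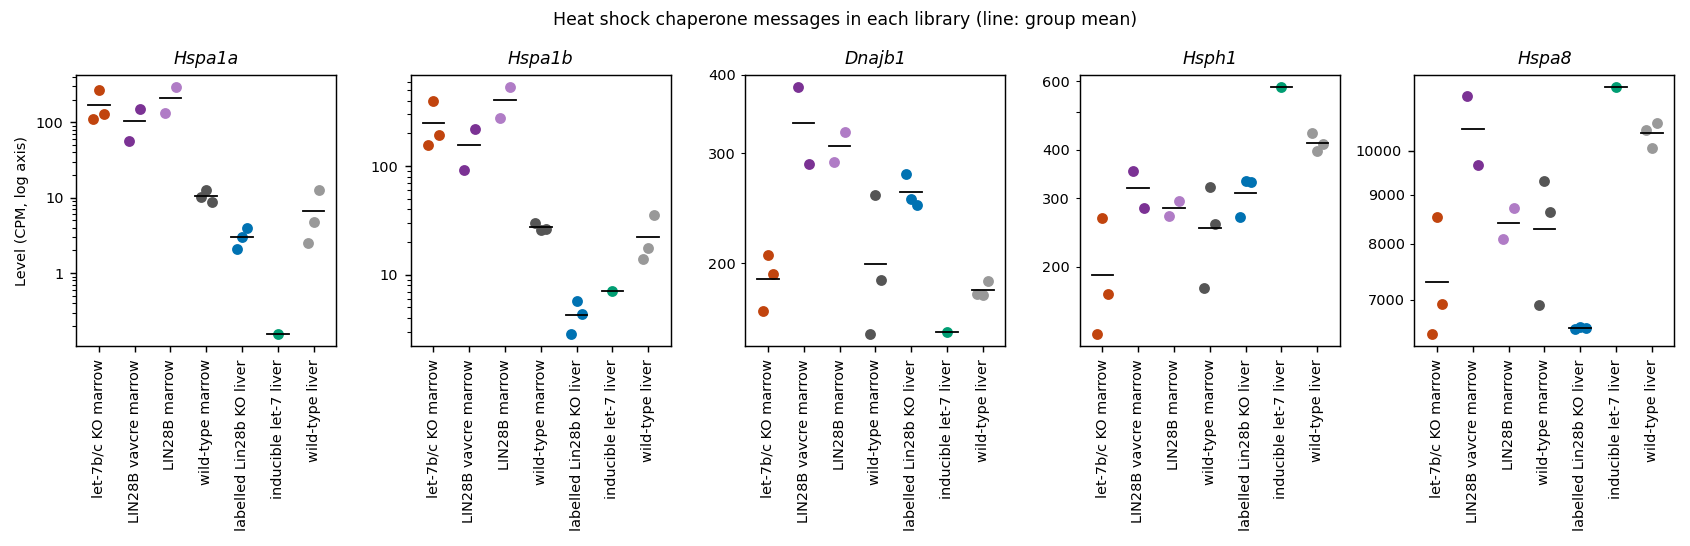
Level of each member in CPM (log axes, with a different range in each panel) in the 17 libraries; points are libraries and lines are group means. In the adult panels of Hspa1a and Hspa1b, all 7 knockout and LIN28B libraries sit above all 3 wild-type libraries, whereas Hspa8 spans 1.81-fold over all 17.

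Both HSP70 genes were higher in let-7b/c knockout marrow than in wild-type marrow, and no other member was called. Hspa1a stood at 111, 271 and 127 CPM in the 3 knockout libraries, against 10.3, 12.6 and 8.87 CPM in the 3 wild-type libraries. Every knockout library lay above every wild-type library. The difference was 16.0-fold (log2 SE 0.55), with an adjusted p of 0.00141 (edgeR, n = 3 and 3). Hspa1b stood at 155, 398 and 193 CPM in the knockout, against 29.7, 25.6 and 26.3 CPM in wild type. Again the groups did not overlap, and library 2 of the knockout was the highest for both genes. The log2 difference of Hspa1b was 3.19 ± 0.44, 9.14-fold, with an adjusted p of 0.00141 (edgeR). With the counts of both genes summed, the log2 difference was 3.47 ± 0.46 (edgeR adjusted p = 0.00113). These 2 members of 5 were called higher, beside 1.33% of all tested genes, and both calls held with each library left out in turn.

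The other members in let-7b/c knockout marrow lay within the range of wild type or close to it. Dnajb1 stood at 168, 206 and 192 CPM, against 154, 257 and 188 CPM in wild-type marrow. Hsph1 stood at 134, 267 and 171 CPM, against 176, 320 and 257 CPM. Hspa8 stood at 6443, 8523 and 6923 CPM, against 6908, 9305 and 8638 CPM. For each of these genes the groups overlapped. Their log2 differences were -0.08 ± 0.15 for Dnajb1 (edgeR adjusted p = 0.871), -0.40 ± 0.22 for Hsph1 (adjusted p = 0.432) and -0.18 ± 0.11 for Hspa8 (adjusted p = 0.482).

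Induced LIN28B marrow showed the same pair raised, together with a smaller rise of Dnajb1. Hspa1a stood at 56.9 and 149 CPM with vavcre and at 131 and 295 CPM without vavcre, against 8.87 to 12.6 CPM in wild-type marrow. Hspa1b stood at 92.5 and 218 CPM with vavcre and at 275 and 536 CPM without it, against 25.6 to 29.7 CPM in wild type. All 4 induced libraries lay above all 3 wild-type libraries for both genes, and within each line 1 library was at least 1.95-fold above the other. Dnajb1 stood at 383 and 288 CPM with vavcre and at 290 and 325 CPM without it, against 154 to 257 CPM in wild type, also with no overlap.

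Over the mean of the lines, Hspa1a was 14.0-fold higher than in wild-type marrow (log2 difference 3.80 ± 0.53, edgeR adjusted p = 0.00056, n = 4 and 3). Hspa1b was 9.22-fold higher (3.20 ± 0.43, adjusted p = 0.00039) and Dnajb1 was 1.61-fold higher (0.69 ± 0.14, adjusted p = 0.00524). These 3 of 5 members were called higher, beside 6.59% of all tested genes. Hsph1 and Hspa8 overlapped wild type, with log2 differences of 0.26 ± 0.21 (adjusted p = 0.444) and 0.18 ± 0.10 (adjusted p = 0.254). When only the libraries of the groups compared were fitted, Dnajb1 missed the threshold (adjusted p = 0.0524).

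Without vavcre, Hspa1a was 20.1-fold higher (log2 difference 4.33 ± 0.57, edgeR adjusted p = 0.00154) and Hspa1b 14.9-fold higher (3.90 ± 0.47, adjusted p = 0.000681) than in wild-type marrow. They were the 2 members called, beside 0.509% of tested genes called higher in that comparison. Without library 5 of the induced line the log2 difference of Hspa1a was 3.64 (adjusted p = 0.0269). Dnajb1 had a log2 difference of 0.62 ± 0.17 and missed the threshold (adjusted p = 0.114). It passed without wild-type library 5 (log2 difference 0.85, adjusted p = 0.016), with no filter on low counts (adjusted p = 0.023) and with DESeq2 (adjusted p = 0.0136). Hsph1 (0.17 ± 0.24, adjusted p = 0.899) and Hspa8 (0.02 ± 0.12, adjusted p = 0.99) were not called.

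With vavcre, 4 of 5 members were called higher than in wild-type marrow, beside 12.5% of tested genes. Hspa1a was 9.70-fold higher (log2 difference 3.28 ± 0.56, edgeR adjusted p = 0.000551), Hspa1b 5.70-fold (2.51 ± 0.45, adjusted p = 0.000823) and Dnajb1 1.68-fold (0.75 ± 0.17, adjusted p = 0.00367). Without vavcre library 6, the higher one for both HSP70 genes, the log2 differences were 2.43 for Hspa1a and 1.76 for Hspa1b, and both stayed called. Dnajb1 missed the threshold when only the groups compared were fitted (adjusted p = 0.0665). Hspa8 stood at 11402 and 9652 CPM with vavcre, against 6908, 9305 and 8638 CPM in wild-type marrow, 1.27-fold higher (0.35 ± 0.12, adjusted p = 0.0463). That call was lost without vavcre library 4 (adjusted p = 0.271), wild-type library 2 (0.161) or wild-type library 6 (0.0568), and when only the groups compared were fitted (0.126). Hsph1 had a log2 difference of 0.34 ± 0.24 (adjusted p = 0.314).

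Set against each other, LIN28B marrow with vavcre and without vavcre differed in none of the 5 members at the threshold (edgeR), beside 20.6% of tested genes called in either direction. Of the 5, 2 had an unadjusted p under 0.05, and DESeq2 called 0. The nearest was Hspa1b, with a log2 difference of -1.38 ± 0.49 (adjusted p = 0.0592) and both vavcre libraries below both others. It passed without library 1 of the line without vavcre (-1.79, adjusted p = 0.0447), without vavcre library 6 (-2.14, adjusted p = 0.0164) and with no filter on low counts (-1.39, adjusted p = 0.0135). Hspa1a had a log2 difference of -1.05 ± 0.58 (adjusted p = 0.223), which was -0.35 without library 5 of the line without vavcre and -1.91 without vavcre library 6. Dnajb1 (0.12 ± 0.18), Hsph1 (0.17 ± 0.27) and Hspa8 (0.32 ± 0.13) had adjusted p-values of 0.1 to 0.705.

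**Figure D2:**
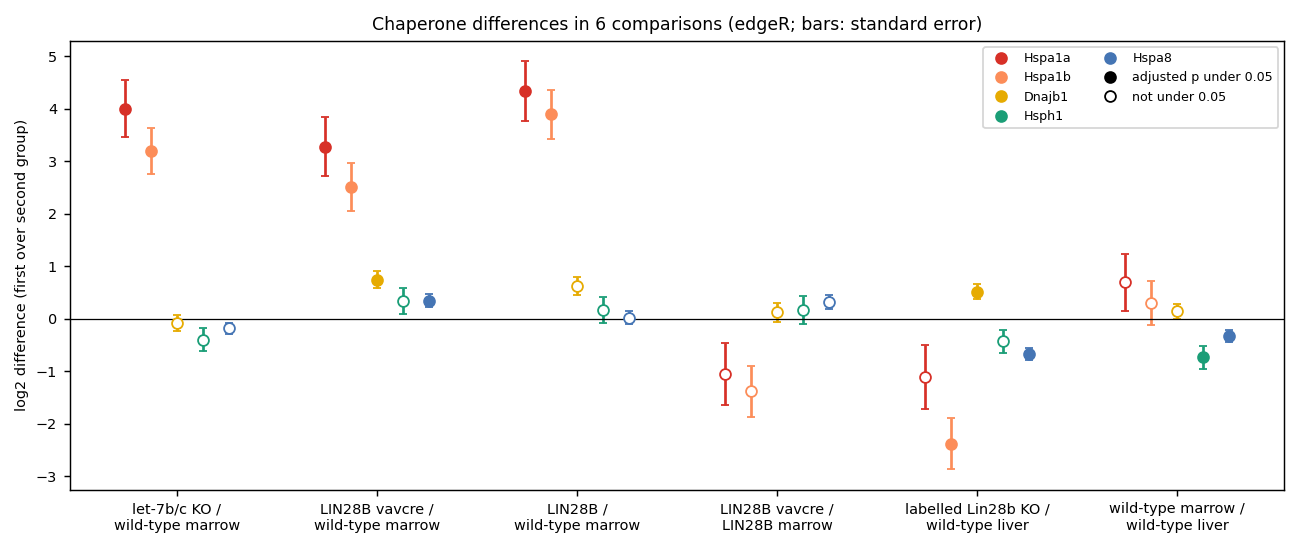
Log2 difference of each member (first group over second) with its standard error in 6 comparisons; filled points had an adjusted p under 0.05 in edgeR and open points did not. Hspa1a and Hspa1b lie between 2.51 and 4.33 in the 3 comparisons with wild-type marrow, while Hsph1 lies between -0.40 and 0.34 there.

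The let-7b/c knockout and both LIN28B lines were set against the same 3 wild-type marrow libraries, so these results are not independent of each other. Other cell type markers differed among the marrow groups. The summed level of 13 monocyte and macrophage markers, all with counts, was 1900 to 2410 CPM in let-7b/c knockout marrow, against 459 to 659 CPM in wild-type marrow. It was 210 to 472 CPM with vavcre (13 of 13 with counts) and 280 to 281 CPM without vavcre (11 of 13, Cd5l and Irf8 at 0). The 12 detected progenitor markers summed to 16174 to 19752 CPM in let-7b/c knockout, 10598 to 12479 CPM with vavcre and 6920 to 7514 CPM without vavcre, against 11408 to 13464 CPM in wild-type marrow. The 12 neutrophil markers (11 with counts in each marrow group, S100a9 at 0) summed to 1014 to 1911 CPM in let-7b/c knockout, 609 and 3469 CPM in the vavcre libraries and 760 to 1082 CPM without vavcre, against 849 to 1524 CPM in wild-type marrow. Of 21 erythroid markers, 16 had counts in the knockout and LIN28B groups and 17 in wild type, with Hba-a1, Hba-a2, Hbb-bt and Hbb-bs at 0 in all 4 groups and Alas2 also at 0 outside wild type. They summed to 558 to 1047 CPM in let-7b/c knockout, 1122 to 1152 CPM with vavcre and 918 to 956 CPM without vavcre, against 600.2 to 887 CPM in wild-type marrow. Of 11 lymphoid markers, 10 had counts in each marrow group (Ebf1 at 0) and summed to 83.6 to 91.9 CPM in let-7b/c knockout, 132 to 174 CPM with vavcre and 82.8 to 91.8 CPM without vavcre, against 81.5 to 85.3 CPM in wild-type marrow. Of 8 megakaryocyte markers, 5 had counts in let-7b/c knockout and with vavcre, and 6 without vavcre and in wild-type marrow. They summed to 124 to 222 CPM in let-7b/c knockout, 221 to 256 CPM with vavcre and 310 to 330 CPM without vavcre. Wild-type marrow had 305 to 448 CPM of them. The part of all these markers in the HSP70 differences was not tested. In bulk RNA, fewer cells of a type and less RNA per cell cannot be told apart.

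In fetal liver, Hspa1b was lower in the libraries labelled Lin28b knockout than in wild type, and Hspa1a did not pass the test. Hspa1b stood at 2.84, 5.69 and 4.31 CPM in these libraries, against 13.8, 17.8 and 35.1 CPM in wild-type fetal liver. The groups did not overlap, and the level was 5.19-fold lower (log2 difference -2.38 ± 0.49, edgeR adjusted p = 0.000968, n = 3 and 3). Hspa1a stood at 2.10, 3.05 and 3.91 CPM, against 2.50, 4.74 and 12.7 CPM, with overlap (-1.11 ± 0.60, adjusted p = 0.156). Wild-type library 5 set much of that value, which was -0.24 without it. Hspa1a rests on 40 to 77 counts per library in the labelled knockout.

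The remaining members in the labelled knockout differed among themselves in direction. Hspa8 stood at 6517, 6557 and 6532 CPM, against 10516, 10076 and 10695 CPM in wild-type fetal liver, 0.627-fold the wild-type level (log2 difference -0.67 ± 0.11, edgeR adjusted p = 0.000125). Dnajb1 stood at 278, 254 and 248 CPM, against 179, 178 and 188 CPM, 1.43-fold higher (0.52 ± 0.15, adjusted p = 0.0109). Hsph1 stood at 269, 331 and 329 CPM, against 443, 396 and 412 CPM, without overlap but short of the threshold (-0.43 ± 0.22, adjusted p = 0.13). Of the 5 members, 1 was called higher and 2 lower, beside 20.8% and 23% of all tested genes.

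Scaling changed part of that picture. Relative to TMM, plain library sizes moved the median of all genes by -0.20 in this comparison, and library sizes that counted set-aside reads moved it by -0.32. Under these, Dnajb1 was no longer called (adjusted p = 0.0992 and 0.309), and Hsph1 was called lower (-0.63, adjusted p = 0.0284, and -0.74, adjusted p = 0.013). Hsph1 was also called lower when only the groups compared were fitted (-0.37, adjusted p = 0.00534). The labelled knockout libraries also differed from wild type in the summed levels of cell type markers. The summed level of 21 erythroid markers was 40808 to 47682 CPM, against 581 to 873 CPM in wild-type fetal liver, with 19 and 16 of them having counts. Hba-a1 and Hbb-bt were at 0 in both groups, and Hba-a2, Hbb-bs and Alas2 also in wild type. Summed levels of 12 neutrophil markers were 2223 to 4830 CPM, against 28.5 to 52.2 CPM, with 11 of 12 having counts in each group and S100a9 at 0. The 14 hepatocyte markers summed to 496 to 1601 CPM (12 with counts, Serpina1a and Ahsg at 0), against 123 to 132 CPM (10 with counts, Serpina1a, Fga, Ahsg and Itih3 at 0). The 13 monocyte and macrophage markers, all with counts, summed to 1080 to 1828 CPM, against 276 to 329 CPM. Of 8 megakaryocyte markers 6 had counts, summing to 548 to 984 CPM, against 102 to 126 CPM. Of 12 stromal and endothelial markers 8 had counts, summing to 33.7 to 130 CPM, against 5.96 to 8.53 CPM. Lymphoid markers (10 of 11 with counts) went the other way, at 53.3 to 65.3 CPM, against 159 to 195 CPM. The part of all these markers in the differences of the 5 members was not tested.

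The single inducible let-7 library had the lowest Hspa1a level of all, 0.155 CPM on 4 counts, against 2.50 to 12.7 CPM in wild-type fetal liver. Its Hspa1b level was 7.13 CPM on 184 counts, against 13.8 to 35.1 CPM. The log2 differences from the wild-type mean were -4.40 and -1.51, both past 2-fold lower, as were 33.8% of tested genes. Hsph1 was at 580 CPM, against 396 to 443 CPM (log2 difference 0.48), and Hspa8 at 11652 CPM, against 10076 to 10695 CPM (0.16). Dnajb1 was at 155 CPM, against 178 to 188 CPM (-0.22). All 5 members lay outside the wild-type range with TMM scaling, 3 below and 2 above. With 1 library this difference has no replicate check.

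Between wild-type marrow and wild-type fetal liver, the inducible HSP70 pair did not pass the test, while Hsph1 and Hspa8 were lower in the adult cells. Hsph1 stood at 176, 320 and 257 CPM in marrow, against 443, 396 and 412 CPM in fetal liver, 0.603-fold the fetal level (log2 difference -0.73 ± 0.22, edgeR adjusted p = 0.0214). Hspa8 stood at 6908, 9305 and 8638 CPM, against 10516, 10076 and 10695 CPM, 0.794-fold (-0.33 ± 0.11, adjusted p = 0.0341). In both genes every marrow library lay below every liver library. These 2 of 5 members were called lower, beside 13.9% of tested genes. Neither call held without marrow library 2 (adjusted p = 0.09 and 0.134), liver library 1 (0.065 and 0.0812) or liver library 5 (0.0523 and 0.0994). The Hspa8 call was also lost with plain library sizes (adjusted p = 0.144), which moved the median of all genes by 0.11. Hspa1a (0.70 ± 0.54, adjusted p = 0.384), Hspa1b (0.30 ± 0.42, adjusted p = 0.653) and Dnajb1 (0.14 ± 0.15, adjusted p = 0.547) overlapped. The value of Hspa1a was 1.56 without liver library 5 (adjusted p = 0.062).

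Ordered by mean level, Hspa1a ran from LIN28B marrow without vavcre (213 ± 115 CPM) through let-7b/c knockout (170 ± 87.6 CPM) and vavcre marrow (103 ± 64.9 CPM) to wild-type marrow (10.6 ± 1.91 CPM), wild-type fetal liver (6.63 ± 5.34 CPM), the labelled Lin28b knockout (3.02 ± 0.90 CPM) and the inducible let-7 library (0.155 CPM). The step between vavcre and wild-type marrow was the one with no overlap among replicated neighbours. Hspa1b had the same first 5 places: 406 ± 184, 249 ± 131, 155 ± 89.0, 27.2 ± 2.16 and 22.2 ± 11.3 CPM. The inducible let-7 library (7.13 CPM) and the labelled Lin28b knockout (4.28 ± 1.42 CPM) came last. Dnajb1 means ran from 335 ± 67.2 CPM with vavcre to 155 CPM in the inducible let-7 library, and Hsph1 means from 580 CPM in that library to 191 ± 68.7 CPM in let-7b/c knockout marrow.

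The ratio of inducible to constitutive HSP70 within a library does not depend on library size. Of 50-base windows in the whole Hspa1a transcript, 58.8% also stood in Hspa1b. Reads lying wholly in such windows were left out of the counts, and summing the pair does not restore them. The levels were also not scaled to transcript length, so the percentages compare groups and do not give the true share of inducible HSP70. The summed Hspa1a and Hspa1b level was 5.54% of the Hspa8 level in let-7b/c knockout marrow, 2.56% with vavcre and 7.28% without vavcre, against 0.466% in wild-type marrow. In fetal liver it was 0.112% in the labelled Lin28b knockout and 0.0625% in the inducible let-7 library, against 0.275% in wild type. On the log2 scale the marrow ratios were -4.23 ± 0.49, -5.49 ± 1.09 and -3.85 ± 0.65, against -7.77 ± 0.29 in wild type, and the liver ratios were -9.85 ± 0.45 and -10.64, against -8.65 ± 0.77. The 7 knockout and LIN28B marrow libraries, from -6.25 to -3.39, did not overlap wild-type marrow, from -7.94 to -7.43.

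Among the marrow groups, Dnajb1 over Hspa8 moved far less than the HSP70 ratio. Its log2 ratio was -5.27 ± 0.10 in let-7b/c knockout marrow, -4.98 ± 0.12 with vavcre and -4.77 ± 0.04 without vavcre, against -5.40 ± 0.19 in wild-type marrow. In fetal liver it was -4.65 ± 0.09 in the labelled Lin28b knockout and -6.23 in the inducible let-7 library, against -5.84 ± 0.03 in wild type. In the labelled knockout the Dnajb1 ratio was thus above wild type, while the HSP70 ratio was below it (-9.85 against -8.65). Hspa8, the denominator of both, was itself lower there (log2 difference -0.67). Hsph1 over Hspa8 ranged from -5.31 ± 0.30 in let-7b/c knockout marrow to -4.33 in the inducible let-7 library.

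**Figure D3:**
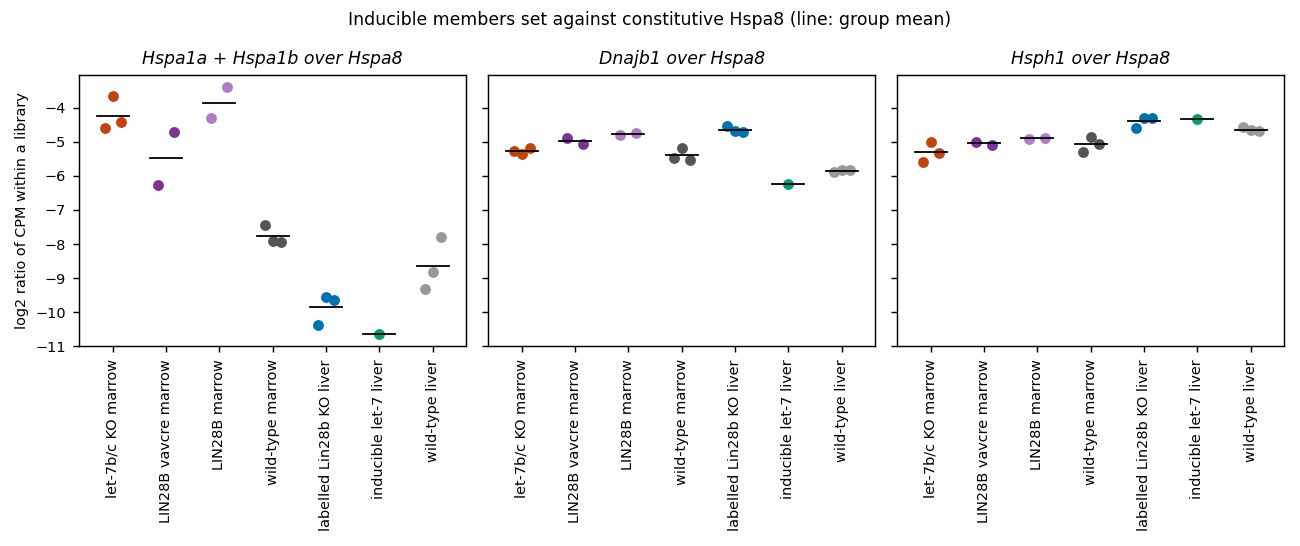
Log2 ratio of the summed Hspa1a and Hspa1b level, of Dnajb1 and of Hsph1 to Hspa8 within each of the 17 libraries; points are libraries and lines are group means. The HSP70 ratio reaches from -10.64 to -3.39, and the 7 knockout and LIN28B marrow libraries, at -6.25 and above, sit over the wild-type marrow libraries.

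Within the HSP70 pair, Hspa1b had more counts than Hspa1a in every library. The ratio of their CPM averaged 1.46 in let-7b/c knockout marrow, 1.55 with vavcre and 1.96 without vavcre, against 2.63 in wild-type marrow. In fetal liver it averaged 1.44 in the labelled Lin28b knockout, against 4.02 in wild type, and it was 46 in the inducible let-7 library with its 4 counts of Hspa1a. These ratios rest on the parts of the transcripts that differ, whose share of each gene is unequal.

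Across all 17 libraries the log2 CPM of Hspa1a and Hspa1b had a Pearson r of 0.94, and those of Hsph1 and Hspa8 an r of 0.72, given as descriptions over libraries that share groups and scaling. Hspa1a with Hspa8 had an r of -0.13. By the same measure over 6660 genes of at least 10 CPM, with the 5 members left out, the gene most like Hspa1a was Zfp36 (r = 0.92), which encodes a protein that destabilises messages and belongs to the immediate early genes, followed by Afap1, Frat2, H2-Ab1 and H2-DMb1. Those most like Hspa1b were Zfp36 (r = 0.91), Ier2 (0.91), Rgs2, Pomk and H2-Ab1. Dnajb1 was most like Brf1 (r = 0.83), Tm9sf1, Tpp1, Wrnip1 and Tsg101. Hsph1 was most like Stip1 (r = 0.94), which encodes the adaptor between HSP70 and HSP90, followed by Elavl1, Exo1, Ahsa1 (an activator of HSP90) and Esf1. Hspa8 was most like Fam216a (r = 0.92), Chordc1 (an HSP90 partner), Pycrl, Lrrc41 and Tra2b.

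Calls among other chaperone genes were set beside the share called of all tested genes. Of 101 other listed chaperones, heat shock factors and HSF1 targets, 85 were tested. In let-7b/c knockout marrow 0 were called higher and 1 lower (edgeR), with 5 and 3 at an unadjusted p under 0.05 and 2 and 2 by DESeq2. Of all tested genes 1.33% were called higher and 0.922% lower there, so these counts lie near the background. That 1 was Hspa4l, which encodes an HSP110 relative, at 63.6 CPM against 101 CPM in wild-type marrow (log2 difference -0.66 ± 0.14, adjusted p = 0.0227). In LIN28B marrow without vavcre 0 were called in either direction (edgeR), with 5 higher and 3 lower at an unadjusted p under 0.05 and 0 and 1 by DESeq2, beside 0.509% and 0.295% of all tested genes by edgeR. With vavcre, 19 were called higher and 15 lower, beside 12.5% and 14.3%, and over the mean of the lines 14 and 8, beside 6.59% and 7.86%. The median log2 difference of the 85 genes was 0.03 in let-7b/c knockout, 0.05 without vavcre and -0.09 with vavcre, beside 0.00, -0.02 and -0.09 over all tested genes.

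Among 25 tested HSF1 targets other than the 5 members, 0 were called higher and 1 lower in let-7b/c knockout marrow (edgeR). Both counts lie near the 1.33% and 0.922% of all tested genes. At an unadjusted p under 0.05 there were 2 higher and 2 lower, and DESeq2 called 0 and 1. Without vavcre 0 were called in either direction, with 3 higher and 0 lower at an unadjusted p under 0.05 and 0 by DESeq2. Some of the 25 had too few counts to show most changes. Dnaja1, with 3 RefSeq transcripts, stood at 0.959 CPM in let-7b/c knockout, against 0.667 CPM in wild-type marrow. Cryab, Ahsa2 and Serpinh1 had 0 counts in all libraries and were not tested. The counts of calls therefore do not cover every listed target. Hspb1, the small heat shock protein, was a target with few counts, at 0.603 CPM in let-7b/c knockout, 0.464 CPM with vavcre and 2.08 CPM without vavcre, against 0.273 CPM in wild-type marrow, and was called in none of them (adjusted p = 0.759, 0.726 and 0.461). With vavcre, 4 targets were called higher and 5 lower, beside 12.5% and 14.3% of all tested genes. Ubb, a polyubiquitin gene, stood at 2828 CPM, against 1069 CPM in wild-type marrow (log2 difference 1.40 ± 0.15, adjusted p = 1.4e-05). Bag3, a nucleotide exchange factor for HSP70, stood at 8.25 CPM, against 21.7 CPM (-1.39 ± 0.30, adjusted p = 0.00286). Hsf1 itself stood at 136 CPM in let-7b/c knockout (-0.05, adjusted p = 0.851) and 127 CPM without vavcre (-0.15, adjusted p = 0.645), against 141 CPM in wild-type marrow, and at 185 CPM with vavcre (0.39 ± 0.09, adjusted p = 0.0065).

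The HSP90 machinery, chaperonins and HSP40 genes were counted in the same way, against the same shares of all tested genes. Of 19 tested genes of HSP90 and its partners, 0 were called in let-7b/c knockout (2 at an unadjusted p under 0.05 and 1 by DESeq2) and 0 without vavcre (2 and 1). With vavcre 5 were called higher and 3 lower. Ptges3, the p23 partner of HSP90, was 1.71-fold higher there (1130 CPM against 662 CPM in wild type, adjusted p = 4.19e-06), and Trap1, the mitochondrial HSP90, was lower (195 CPM against 277 CPM, adjusted p = 0.000607). Of 10 chaperonin genes, 0 were called in let-7b/c knockout and 0 without vavcre (edgeR, with 0 at an unadjusted p under 0.05 and 0 by DESeq2 in both), and 1 was higher and 4 lower with vavcre. Of 25 HSP40 genes, 0 were called in let-7b/c knockout (1 at an unadjusted p under 0.05 and 1 by DESeq2), 0 without vavcre (2 and 0), and 5 higher and 4 lower with vavcre. Dnajc9 was among the higher ones (428 CPM against 257 CPM, adjusted p = 3.34e-05). Many chaperone genes have several RefSeq transcripts, and reads that fit more than 1 were set aside by the counting, which lowers their levels.

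Immediate early genes, which are known for fast and transient transcription after stimuli such as growth factors, stress and tissue dissociation, moved in the same marrow libraries as the HSP70 pair. Of 23 tested, 9 were called higher in let-7b/c knockout, 13 with vavcre and 14 without vavcre (edgeR), beside 1.33%, 12.5% and 0.509% of all tested genes. Called lower were 0 in each, with 0, 1 and 0 lower at an unadjusted p under 0.05 and 0 in each by DESeq2. Their median log2 difference was 0.92 in let-7b/c knockout, 1.89 with vavcre and 1.49 without vavcre, beside 0.00, -0.09 and -0.02 over all tested genes. Jun, a subunit of the AP-1 transcription factor, stood at 391, 442 and 432 CPM in let-7b/c knockout, 627 and 689 CPM with vavcre and 444 and 971 CPM without vavcre, against 19.1, 14.6 and 14.1 CPM in wild-type marrow. Its partner Fos stood at 54.0 to 110 CPM in let-7b/c knockout and 32.2 to 164 CPM in the LIN28B lines, against 1.11 to 2.08 CPM. The called log2 differences of Jun were 4.73 ± 0.42, 5.37 ± 0.44 and 5.47 ± 0.44 (edgeR adjusted p = 2.79e-05, 2.93e-06 and 4.27e-05).

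Inside groups of 2 or 3 libraries, the immediate early genes and the HSP70 pair had the same order in some groups and not in others, and no test was run. In let-7b/c knockout, library 2 had 271 CPM of Hspa1a, against 111 and 127 CPM in libraries 1 and 3, while the immediate early sum was 1643, 1596 and 1587 CPM in libraries 2, 1 and 3. Jun, at 442, 391 and 432 CPM in libraries 2, 1 and 3, had the order of Hspa1a there. Without vavcre, library 5 exceeded library 1 in Jun (971 CPM against 444 CPM), Fos (164 CPM against 32.2 CPM), Hspa1a (295 CPM against 131 CPM) and Hspa1b (536 CPM against 275 CPM). In wild-type fetal liver, libraries 5, 4 and 1 had 74.3, 41.5 and 20.1 CPM of Jun and 12.7, 4.74 and 2.50 CPM of Hspa1a. With vavcre the libraries did not follow that pattern closely: library 6 had 2.61-fold the Hspa1a level of library 4, with 689 CPM against 627 CPM of Jun and 84.3 CPM against 100 CPM of Fos. The orders also differed in wild-type marrow. Libraries 5, 2 and 6 had 12.6, 10.3 and 8.87 CPM of Hspa1a and 14.6, 19.1 and 14.1 CPM of Jun there. Labelled Lin28b knockout libraries 8, 6 and 3 had 3.91, 3.05 and 2.10 CPM of Hspa1a and 13.8, 21.1 and 10.8 CPM of Jun. The summed level of the 25 listed genes was 1587 to 1643 CPM in let-7b/c knockout, 2449 to 2502 CPM with vavcre and 1540 to 3163 CPM without vavcre, against 559 to 596 CPM in wild-type marrow. Its part in the HSP70 differences was not tested. In the labelled Lin28b knockout liver the list and the pair went apart. Hspa1b was at -2.38 there. Of 23 listed genes 9 were called higher and 3 lower (median log2 difference 0.47), beside 20.8% and 23% of all tested genes. Among the listed genes called higher was Btg2, an antiproliferative gene, at 423 CPM against 30.6 CPM in wild type (edgeR adjusted p = 1.42e-09). The summed level of the list was 1017 to 1103 CPM there, against 460 to 588 CPM in wild-type fetal liver.

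**Figure D4:**
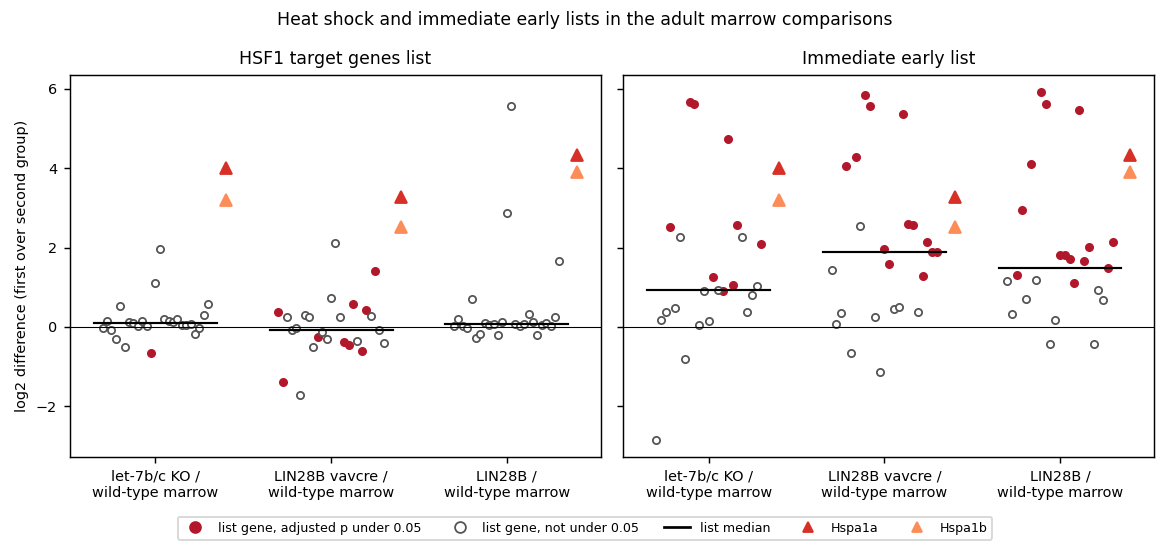
Log2 difference of each tested HSF1 target (left) and immediate early gene (right) in 3 marrow comparisons with wild type; filled points had an adjusted p under 0.05, lines are list medians, and triangles give Hspa1a and Hspa1b. HSF1 target medians lie from -0.08 to 0.09, and immediate early medians from 0.92 to 1.89. Some of the HSF1 targets had few counts.

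With vavcre against without vavcre, 16 of the 85 listed genes were called higher and 17 lower. Of all tested genes 20.6% were called in either direction there. Between wild-type marrow and wild-type fetal liver, 12 of 85 were called higher and 40 lower, beside 13.2% and 13.9% of all tested genes, with a median log2 difference of -0.26, beside 0.08 over all tested genes. Of 10 chaperonin genes 0 were called higher and 9 lower (0 and 9 at an unadjusted p under 0.05 and by DESeq2), among them Hspd1, the mitochondrial HSP60, at 975 CPM in marrow against 2248 CPM in fetal liver (-1.21 ± 0.08, adjusted p = 1.1e-07). HSP40 genes had 6 called higher and 6 lower of 25. Of 19 HSP90 genes and partners 1 was higher and 15 lower, among them Cacybp (346 CPM against 710 CPM, adjusted p = 1.42e-06). Hsph1 and Hspa8 were called lower in the same comparison, and Hspa1a, Hspa1b and Dnajb1 were not called.

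In the labelled Lin28b knockout, 13 of the 85 were called higher and 38 lower, beside 20.8% and 23% of all tested genes, with a median of -0.16, beside 0.00 over all tested genes. HSP90 and its partners had 0 called higher and 12 lower of 19, the same counts at an unadjusted p under 0.05 and by DESeq2. Fkbp5, an HSP90 partner of steroid receptors, stood at 54.8 CPM, against 171 CPM in wild-type fetal liver (-1.65 ± 0.10, adjusted p = 4.27e-09). HSP40 genes had 6 called higher and 9 lower of 25, with Dnaja4 at 252 CPM, against 4.73 CPM (5.73 ± 0.30, adjusted p = 6.14e-10). Bag3 (26.6 CPM against 10.04 CPM, adjusted p = 0.000375) and Hspa4l (154 CPM against 72.8 CPM, adjusted p = 1.5e-05) were also higher, beside the erythroid, neutrophil and hepatocyte levels given above.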

How the data were processed

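RNA of common myeloid progenitors was sequenced in 17 libraries. The authors deposited raw counts per RefSeq transcript (33818 accessions), in tables that end with the summary lines of HTSeq. Per the submitters' processing notes, the tools were TopHat2, HTSeq and cutadapt and the build was mm10. Their versions, parameters and strand setting: not given in the sources used here. Ambiguous reads were 23.8% to 29.8% of those placed once, and reads off transcripts 8.87% to 19.3%. Neither entered library sizes, and the first lowers genes with overlapping transcripts. Counting precision covers sampling of reads only.

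Accessions were named from RefSeq GRCm38.p6 (33435) or GENCODE vM21 (191), 192 had no name, and sums over transcripts gave 24416 genes. No per-sample column was left unused. The test was the quasi-likelihood test of edgeR 4.0.16 after TMM and filterByExpr on group. It used 1 fit over 17 libraries (7 group means, residual degrees of freedom 10), with Benjamini-Hochberg adjustment over 13558 genes. Log2 CPM used a prior count of 2. The inducible let-7 library was described without a test. The steps were tested on simulated data: of 200 genes changed 4-fold, 85% were recovered with 6 false calls for let-7b/c knockout against wild-type marrow (12037 genes run), and 87.5% with 15 for LIN28B without vavcre (12073 genes). Changed genes were drawn only from those above 1 CPM in wild-type marrow. All other genes had the same mean in every group. These rates therefore do not cover genes with few counts or groups that differ widely.

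Named genes were the 5 members, up to 4 called genes with the smallest p per list and comparison, and the 5 genes most like each member by Pearson r. Hspb1, Hsf1 and the per-library immediate early values outside that rule were chosen after their values were seen. The lists were HSP70 and HSP110, HSP40, HSP90 and cochaperones, nucleotide exchange factors, small heat shock proteins, chaperonins, heat shock factors, HSF1 targets, endoplasmic reticulum stress and immediate early genes. Members and lists were chosen with earlier results of these data known. No set test was run. Alternatives were RLE, plain and set-aside-inclusive library sizes, DESeq2 1.42.0, no filter, 1-transcript genes, summed Hspa1a and Hspa1b, the compared groups alone, a block on the number in the title, and each library left out. A fit without the inducible let-7 library and one without the labelled Lin28b knockout libraries were added after seeing the data. Software was R 4.3.3, Python 3.11.15, pandas 2.3.3, numpy 2.4.6 and matplotlib 3.10.9.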

Additional observations from a re-analysis of the deposited data

Results flagged for a closer look

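Alignments set aside because they were not unique averaged 14332578 in the libraries labelled Lin28b knockout. The 3 libraries had 13806574, 13700592 and 15490567, all above the 5343437, 4892660 and 4287171 of the wild-type fetal liver libraries. These alignments lie outside the counts used for the 5 members. Hspa1a and Hspa1b, being near-identical, can lose reads to this class, and its part in the lower Hspa1b level of the labelled knockout was not tested.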

How the results depend on the processing

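The rises of Hspa1a and Hspa1b against wild-type marrow kept their direction and stayed called under every alternative run in the let-7b/c knockout, both LIN28B lines and their mean. With 1 library left out, the count of members called ranged from 0 to 2 for wild-type marrow against fetal liver, 0 to 1 for vavcre against no vavcre, 2 to 3 for LIN28B without vavcre and 3 to 4 with vavcre against wild-type marrow. Each member was also counted once per comparison and refit, so the same call can be lost several times. With 1 library left out, 218 such results kept their status, 9 lost a call and 3 gained one. The calls lost there were those of Hsph1 and Hspa8 for wild-type marrow against fetal liver and of Hspa8 for vavcre against wild-type marrow. Under other settings 311 kept their status, 12 lost a call and 8 gained one. No called difference turned its sign. All genes called ranged from 96 to 378 (main 305) for let-7b/c knockout, 26 to 121 (109) without vavcre, 1095 to 2672 (1958) for the mean of the lines and 1376 to 3152 (2799) for vavcre against no vavcre. The lowest came without wild-type marrow library 2 (96 and 1095) or library 5 of the line without vavcre (26 and 1376). Low counts also came without let-7b/c knockout library 2 (130), and wild-type marrow libraries 5 (191) and 6 (142), for let-7b/c knockout. Without vavcre they were 40 without its library 1, and 62, 58 and 48 without wild-type marrow libraries 2, 5 and 6. For the mean of the lines they were 1166 without library 1 of the line without vavcre and 1206 without wild-type marrow library 6.

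Members called moved to 1 with plain library sizes in wild-type marrow against fetal liver, to 1 with Hspa1a and Hspa1b counted as 1 feature in let-7b/c knockout and in LIN28B without vavcre, which the summing itself brings about, to 1 with no filter in vavcre against no vavcre, and to 2 with only the groups compared in vavcre against wild-type marrow. All genes called moved to 191 with no filter, 268 with only the groups compared and 390 with DESeq2 in LIN28B without vavcre, and to 785 with DESeq2 in let-7b/c knockout. With only the groups compared they moved to 1132 for the mean of the lines, 2007 for vavcre against wild type and 422 for vavcre against no vavcre. Without the labelled Lin28b knockout libraries, the Hspa8 call with vavcre was lost (adjusted p = 0.0594). In the inducible let-7 library, plain library sizes moved Hspa8 to 0.06, Hsph1 to 0.37 and Dnajb1 to -0.33. The cause of these shifts was not tested.

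The labels do not say whether the numbers in the titles pair libraries. Same-numbered libraries of different groups had correlated deviations of -0.08 to 0.03. Differently numbered libraries were not set beside them, so these values cannot decide whether the numbers carry a pairing. With the number as a replicate block, genes called fell to 2185 for marrow against fetal liver, 3073 for the labelled Lin28b knockout, 35 for let-7b/c knockout, 274 for the mean of the lines, 16 without vavcre, 1539 with vavcre and 435 for vavcre against no vavcre. Members called became 0 for marrow against fetal liver (adjusted p = 0.115 for Hsph1 and 0.193 for Hspa8) and 1 for vavcre against no vavcre (Hspa1b, 0.0192). In the labelled Lin28b knockout the block lost the Hspa8 call (adjusted p = 0.0623) and called Hspa1a lower (-1.36, adjusted p = 0.0291). Against wild-type marrow it lost Dnajb1 over the mean of the lines (adjusted p = 0.0655) and Hspa8 with vavcre (0.222). Depth limits Hspa1a most, with 4 counts in the inducible let-7 library and 40 to 221 in the other fetal liver libraries, and counting precision covers sampling of reads only.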

Other observations

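Chaperones of the endoplasmic reticulum, which fold secreted and membrane proteins and answer to another stress pathway, were counted in the same comparisons. Hspa5, which is on their list and has 2 RefSeq transcripts, had 39 counts over all libraries and was not tested. Of 17 tested genes of that list, 1 was called higher and 0 lower in let-7b/c knockout (edgeR), beside 1.33% and 0.922% of all tested genes. At an unadjusted p under 0.05 there were 3 and 0, and DESeq2 called 2 and 0. The 1 called by edgeR was Pdia6, a protein disulfide isomerase, at 1022 CPM against 706 CPM in wild-type marrow (log2 difference 0.53 ± 0.09, adjusted p = 0.0066). Without vavcre 0 were called, beside 0.509% and 0.295% of all tested genes. At an unadjusted p under 0.05 there were 0 higher and 9 lower, and DESeq2 called 0 and 2. With vavcre 7 were higher and 1 lower against the line without vavcre, beside 20.6% of all tested genes called in either direction. Against wild type 3 were higher and 2 lower, beside 12.5% and 14.3% of all tested genes, among them Calr, the lectin chaperone calreticulin, at 491 CPM against 876 CPM (-0.83 ± 0.14, adjusted p = 0.000388), and Edem1, which takes part in the degradation of misfolded proteins, at 270 CPM against 180 CPM (adjusted p = 0.00163). In the labelled Lin28b knockout 2 were higher and 10 lower, beside 20.8% and 23% of all tested genes. Among the lower ones was Pdia4, at 191 CPM against 412 CPM in wild-type fetal liver (-1.11 ± 0.12, edgeR adjusted p = 1.75e-06).

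Hspa1l, the HSP70 relative next to Hspa1a, differed from the pair in LIN28B marrow with vavcre, where it had 1 count in each library, against 59 to 100 counts in the wild-type marrow libraries (edgeR adjusted p = 5.61e-06). The inducible let-7 library had 0 counts of Hspa1l. These libraries also had the highest shares of tested genes at 0 counts, 15.1% and 17.3% with vavcre and 28.5% in the inducible let-7 library. Also tested were 8 HSP70 and HSP110 relatives (with Hspa1l), 9 nucleotide exchange factors, 3 small heat shock proteins and 4 heat shock factors or partners. In let-7b/c knockout marrow 0 of them were called higher and 1 lower, Hspa4l, beside 1.33% and 0.922% of all tested genes. In the labelled Lin28b knockout Hspb6, a small heat shock protein, stood at 10.2 CPM, against 2.04 CPM in wild-type fetal liver (2.33 ± 0.40, adjusted p = 0.000194), and Hsbp1, which encodes a binding partner of HSF1, at 71.98 CPM, against 117 CPM (-0.70 ± 0.09, adjusted p = 7.6e-06).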
